A study of Mus musculus with 20 samples.

Results

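The genes described here build the junctions that hold epithelial cells together and let them exchange small molecules. A gene was taken when its mouse symbol began with Cldn, Tjp, Dsg, Dsc and a digit, Pkp, Gja, Gjb or Gjc, or was Ocln, F11r, Marveld2, Marveld3, Dsp, Jup, Ctnna1, Ctnnb1, Ctnnd1, Cgn or Cdh3. RefSeq holds 80 mouse symbols that meet this rule, and 53 of them had a row among the 16978 named genes of the series. The other 27, among them Cldn8, Dsg1a, Dsg2, Dsc3, Gjb1, Gjb2 and Gjb6, were not analysed here.

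Tight junctions seal the space between neighboring epithelial cells. Claudins form the sealing strands, occludin and the other MARVEL proteins are membrane partners of the strands, and the zonula occludens scaffolds (Tjp genes) and cingulin tie them to the actin cytoskeleton. Desmosomes join the keratin filaments of adjacent cells through the cadherins desmoglein and desmocollin, which are held at the plaque by plakoglobin, plakophilins and desmoplakin. Gap junctions are channels made of connexins, and adherens junctions link classical cadherins to actin through the catenins.

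The study asked how macrophages take part in resistance of prostate cancer bone metastasis to the antiandrogen enzalutamide. The tumor cells of every group were MycCaP-Bo, a bone-homing line selected by repeated passage in FVB/N males from MycCaP cells, which came from a Myc-driven FVB prostate tumor, so all libraries carry the Myc transgene and a luciferase and iRFP reporter and stem from a common selected line. Mice aged 4 to 6 weeks were injected into the heart, and CD45- iRFP+ tumor cells were sorted from bone lesions, with cells of 3 mice pooled in each library. Each of 4 groups had 5 libraries: Naive tumors received vehicle, Resist tumors received enzalutamide at 30 mg per kg by daily gavage for 18 days, Resist-Mac tumors received the same enzalutamide course plus liposomal clodronate (1 mg per mouse per injection), which kills phagocytes, in its last 4 days, and Naive-Mac tumors received vehicle plus clodronate for 4 days. Naive-Mac is the name used here for the depleted naive group.

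Naive and Resist libraries were deposited together, whereas Resist-Mac and Naive-Mac libraries were each deposited apart. Each of these sets was taken here as a batch. Only Resist vs. Naive was therefore a comparison within a batch, and in the depletion comparisons batch and condition cannot be told apart. Values were deposited as FPKM, fragment counts scaled by transcript length and by library total, and the counts themselves were not used here, so library depth is not known and no counting interval can be given. A change is the difference of mean log2(FPKM + 1) between 2 groups, which understates changes of low genes. A call required an adjusted p under 0.05 in limma (Benjamini-Hochberg, over all genes tested) and more than a 1.5-fold difference.

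Epithelial markers gave a divided picture of the sorted cells. Krt8, a luminal keratin, averaged 317, 190, 107 and 196 FPKM in Naive, Resist, Resist-Mac and Naive-Mac libraries, and Esrp2, an epithelial splicing regulator, averaged 58.1, 52.8, 44.9 and 30.7 FPKM. Krt18, the usual partner of Krt8, and Cdh1, the epithelial cadherin, averaged at most 0.106 FPKM in each group, and Epcam had a row in the Naive-Mac table only. Values at or near 0 in tables without counts can be failed estimates, so lack of expression was not read from them for Krt18 and Cdh1, nor for members such as Cldn7 and Ocln. Of the neutrophil list all 10 genes had a row, and their summed FPKM ranged from 176 to 1270 in Naive, 61.4 to 603.6 in Resist, 406 to 8774 in Resist-Mac and 58.7 to 6157 in Naive-Mac libraries. The summed FPKM of the 10 macrophage markers had medians of 12.9, 10.5, 27.7 and 14.0 in the same order. It ranged from 7.75 to 86.1 in Resist-Mac libraries. Of these markers Cd14 averaged 7.09, 4.27, 28.7 and 9.86 FPKM in that order. Adgre1 and C1qa averaged at most 0.274 and 0.434 FPKM in each group. The summed FPKM of the endothelial markers did not exceed 6.46 in any library, and that of the osteoblast and stromal markers did not exceed 24.9.

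Of the 53 members, 23 had a mean of at least 1 FPKM and were tested, 28 stayed under 1 FPKM in every library, and Gja1 and Cldn15 reached at most 1.30 and 1.01 FPKM in single libraries. There was a clear gap between the sets, because the lowest overall mean among tested members was 2.97 FPKM (Cldn1) and the highest among the others was 0.507 FPKM (Gja1). The tested members were 7 of 21 claudins, 5 of 8 tight junction MARVEL proteins, scaffolds and JAM-A, 4 of 6 desmosomal plaque genes, 0 of 2 desmosomal cadherins, 3 of 4 adherens junction members, 3 of 11 connexins and Cldnd1, a claudin-domain gene.

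**Figure D1:**
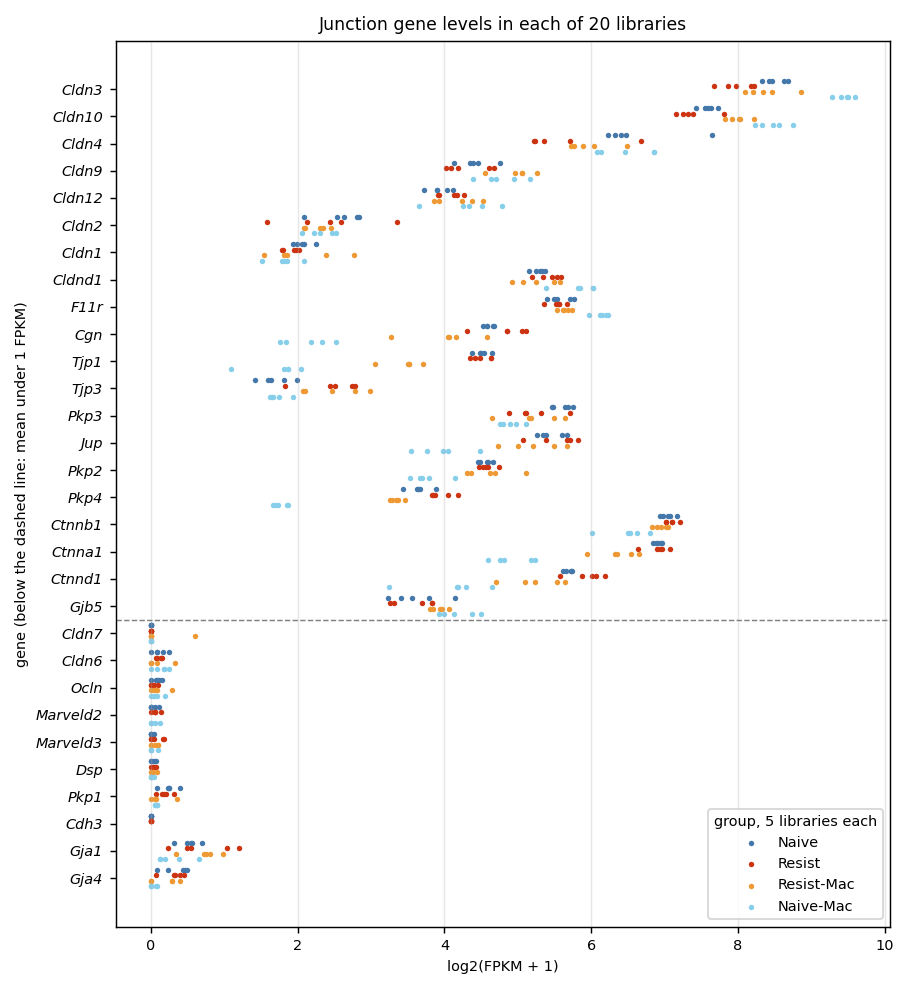
Levels of 20 of the 23 tested junction genes and of 10 others in every library, as log2(FPKM + 1) on the horizontal axis, with 5 dots per group and genes ordered by class. Below the dashed line the genes with a mean under 1 FPKM lie near 0 in all groups, and above it Cldn3 and Cldn10 lie highest while Cgn, Tjp1 and Pkp4 show the Naive-Mac dots at the low end.

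Among claudins, Cldn3 was the most abundant, with 363 ± 37.6 FPKM in Naive, 254 ± 39.5 in Resist, 342 ± 74.2 in Resist-Mac and 703 ± 56.3 in Naive-Mac tumors (SD, n = 5 libraries here and below). Cldn10 followed with 192 ± 14.5, 168 ± 31.9, 257 ± 26.8 and 357 ± 51.3 FPKM, and Cldn4 with 105 ± 53.0, 53.2 ± 27.9, 63.5 ± 15.2 and 90.4 ± 23.3 FPKM. Cldn3, Cldn10, Cldn4, Cldn9 and Cldn12 together made up 98.7%, 98.3%, 98.8% and 99.4% of the FPKM of all claudins in the 4 groups. The share of Cldn3 alone was 51.7 ± 4.33% in Naive, 48.9 ± 2.65% in Resist, 47.1% in Resist-Mac and 58.4% in Naive-Mac tumors. Cldn7, a claudin common in simple epithelia, was listed at 0 in 19 of the 20 libraries and at 0.52 FPKM in Resist-Mac 3.

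The membrane partners of the claudin strands were listed near 0, and scaffolds beneath them had higher values. Ocln, which encodes occludin, did not exceed 0.22 FPKM in any library, Marveld2 (tricellulin) did not exceed 0.10, and Marveld3 did not exceed 0.13. F11r, which encodes the junctional adhesion molecule JAM-A, averaged 47.1 ± 4.98 FPKM in Naive tumors. Among scaffolds, Naive tumors held 23.4 ± 1.11 FPKM of Cgn (cingulin) and 21.8 ± 1.60 of Tjp1, the founding zonula occludens gene, but 2.27 ± 0.499 of Tjp3.

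The desmosomal cadherins with a row were Dsg3, at 0.02 FPKM or less in the Naive and Resist table, and Dsc2, at 0.08 FPKM or less in the Naive-Mac table. Dsp, which encodes desmoplakin, the link to keratin filaments, did not exceed 0.06 FPKM in any library, and Pkp1 did not exceed 0.32. The other plaque genes were tested, and Naive tumors had 47.7 ± 4.29 FPKM of Pkp3, 43.0 ± 5.42 of Jup (plakoglobin, shared with adherens junctions), 22.5 ± 1.40 of Pkp2 and 11.6 ± 1.43 of Pkp4, a p120-related armadillo gene.

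The 3 catenins of the adherens junction were among the highest members, with 131 ± 8.60 FPKM of Ctnnb1 (β-catenin), 119 ± 3.92 of Ctnna1 (α-catenin) and 50.6 ± 1.88 of Ctnnd1 (p120-catenin) in Naive tumors. Cdh3, which encodes P-cadherin, was listed at 0 in all 10 Naive and Resist libraries and had no row in the other tables. Cldn23 and Cldn34d were likewise listed at 0 throughout the only table that held them.

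Of the 11 connexins with a row 3 were tested. Gjb5, an epidermal-type connexin, averaged 11.7 ± 3.26, 11.2 ± 2.29, 14.2 ± 1.10 and 17.4 ± 3.17 FPKM in Naive, Resist, Resist-Mac and Naive-Mac tumors. Gja1, which encodes connexin 43, the connexin of most tissues, ranged from 0.09 to 1.30 FPKM over the 20 libraries, and Gja4 from 0 to 0.41. The other connexins that were not tested stayed under 1 FPKM in every library.

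Other neighboring members had levels that were far apart or were both near 0, except for Cldn4 and Cldn3. These averaged 105 and 363 FPKM in Naive tumors. In the RefSeq annotation of GRCm38.p6, Cldn13, Cldn4 and Cldn3 follow each other with starts within 100 kb, and Cldn13 did not exceed 0.74 FPKM. Cldn9 lies next to Cldn6, and had 20.5 ± 3.46 FPKM in Naive tumors against at most 0.26 FPKM of Cldn6 in any library. The pairs Ocln with Marveld2 and Cldn22 with Cldn24 were low in both genes, since Cldn22 reached at most 0.20 FPKM and Cldn24 at most 0.36.

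The comparison of Resist with Naive tumors asked which junction genes differ once tumors grow under enzalutamide. Tjp3, the scaffold zonula occludens 3, was higher in Resist tumors and Cldn4, a sealing claudin, was lower. They were the only members called, 2 of 23 tested, or 8.70%, where 6.39% of all 10053 genes tested were called, 5.26% as higher in Resist tumors and 1.12% as lower. The median log2 change was -0.039 over the 23 members and 0.033 over all genes. A further 3 members passed the adjusted p without reaching the fold threshold, so that 5 of 23 passed it at any fold against 19.1% of all genes.

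Tjp3 (Entrez 27375) had 2.03, 2.98, 1.68, 2.52 and 2.12 FPKM in Naive replicates 1 to 5, and 5.68, 4.42, 4.68, 5.88 and 2.55 FPKM in Resist replicates 1 to 5. Of the Resist libraries, 4 lay above every Naive library, and Resist 5 lay between Naive 4 and Naive 2, so the groups overlapped. Its log2 change was 0.76 (SE 0.17), a 1.70-fold rise on the FPKM + 1 scale, with an adjusted p of 0.0108 in limma. It stayed called without any single library, at log2 changes from 0.68 to 0.92, but not without both Naive 3 and Resist 1, at 0.63 with an adjusted p of 0.0592. By the noise-distribution probability, an estimate of the chance that a change exceeds those between replicates of a group, Tjp3 reached 0.638 and was not called, where over 0.8 was needed.

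Cldn4 (Entrez 12740) had 74.4, 88.1, 199, 78.9 and 84.1 FPKM in Naive replicates 1 to 5, and 101.9, 36.2, 39.95, 51.25 and 36.7 FPKM in Resist replicates 1 to 5. In each group a library stood far above the other 4, Naive 3 and Resist 1, and Resist 1 exceeded 4 of 5 Naive libraries. The log2 change was -0.98 (SE 0.31), or 1.97-fold lower in Resist tumors, with an adjusted p of 0.0447 in limma. The call was lost when any of the 9 libraries other than Resist 1 was left out, with log2 changes from -1.24 to -0.72 over the 10 single omissions. Without both Naive 3 and Resist 1 the log2 change was -0.98, with an adjusted p of 0.00149. By the noise-distribution probability Cldn4 reached 0.953 and was called.

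Cldn3 (Entrez 12739), the neighbor of Cldn4, had 351, 409.7, 341, 395 and 321 FPKM in the Naive libraries and 297, 202.5, 250.3, 232 and 289 FPKM in the Resist libraries. Every Resist library lay below every Naive library, and Cldn3 was the sole member of the 23 tested without overlap, where 12.8% of all genes did not overlap. It fell by 0.52 on the log2 scale (SE 0.11, adjusted p of 0.00624 in limma), a 1.44-fold difference that was under the fold threshold. Without both Naive 3 and Resist 1 it was called, at -0.60.

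**Figure D2:**
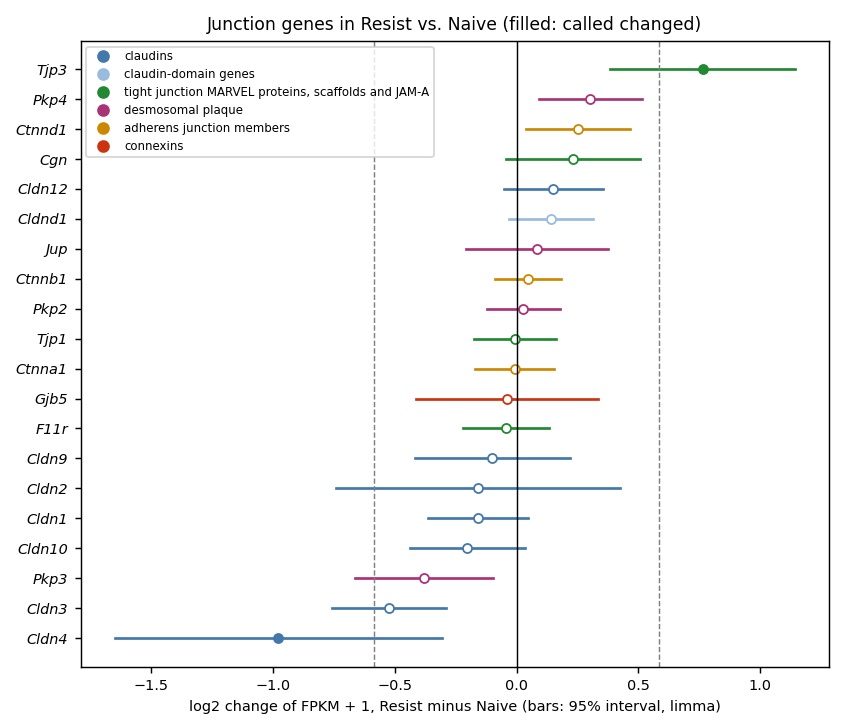
Log2 change of FPKM + 1 in Resist minus Naive tumors for 20 of the 23 tested junction genes, sorted by size and colored by class, with bars for the 95% interval in limma and dashed lines at the 1.5-fold threshold. The filled points are Tjp3 at 0.76 and Cldn4 at -0.98, the only members past both thresholds, and Cldn3 lies nearest to Cldn4.

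Tjp1 and Cgn, also scaffolds, were not called. Tjp1 had a log2 change of -0.0059 (SE 0.077). Cgn had 23.0, 24.4, 22.8, 22.0 and 24.6 FPKM in Naive and 32.2, 33.7, 27.9, 27.8 and 18.9 FPKM in Resist libraries, so that 4 Resist libraries lay above and Resist 5 below all Naive libraries, and its log2 change of 0.23 (SE 0.13) did not pass (adjusted p of 0.213 in limma). Resist 5 was also the lowest Resist library for Tjp3, Tjp1, Jup, Ctnna1 and Ctnnd1. Without Resist 5, Cgn had a log2 change of 0.36 with an adjusted p of 0.00439, still under the fold threshold, whereas F11r had -0.0435 (SE 0.0816) with all libraries.

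Of the 7 plaque and adherens genes tested 0 were called by limma or by the noise-distribution probability. In limma 3 had an unadjusted p under 0.05, and the share of all genes at that level was not counted. Pkp4 was 1.23-fold higher (log2 0.30, SE 0.10, adjusted p of 0.0468 in limma), and Pkp3 had a log2 change of -0.38 (SE 0.13, adjusted p of 0.0614). The values of Jup, Pkp2, Ctnnb1 and Ctnna1 lay between -0.0067 and 0.084, with standard errors of 0.13 or less, and Ctnnd1 had 0.25 (SE 0.10, adjusted p of 0.0900). The adjusted p of Pkp4 was near the threshold, and passed it no longer in 7 of the 10 single omissions.

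Of the 3 connexins tested 0 were called in Resist vs. Naive by limma or by the noise-distribution probability. In limma 1 had an unadjusted p under 0.05, and the share of all genes at that level was not counted. Gjb5 had a log2 change of -0.039 (SE 0.17, adjusted p of 0.898 in limma), and its libraries overlapped, with 8.37 to 16.7 FPKM in Naive and 8.60 to 13.3 FPKM in Resist tumors. For Cldn4, whose values in Naive 3 and Resist 1 stood apart, a list of basal and squamous epithelial genes was summed as well. The summed FPKM was highest in Naive 3 among Naive libraries, at 284 where the others held 93.7 to 188, but in Resist tumors it was highest in Resist 2, at 223, with 116 in Resist 1. The part of such cells in the Cldn4 values was not tested.

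**Figure D3:**
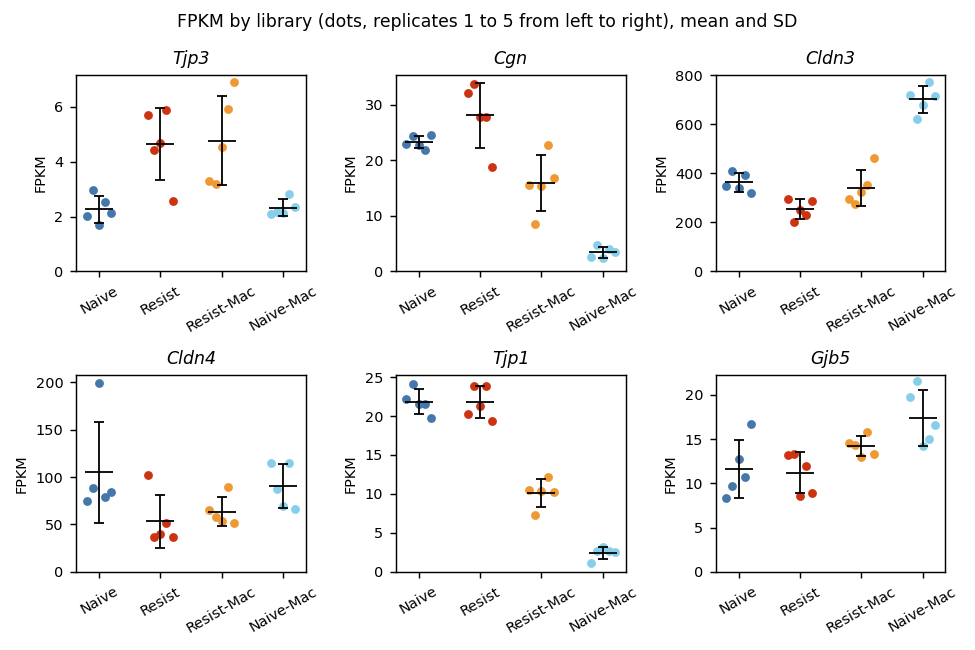
FPKM of Tjp3, Cgn, Cldn3, Cldn4, Tjp1 and Gjb5 in each library (dots, replicates 1 to 5 from left to right within a group), with the group mean and SD in black. Cldn4 in Naive 3 (199 FPKM) and Resist 1 (101.9 FPKM) stands above the other libraries of its group, Resist 5 has the lowest Resist value of Tjp3 and Cgn, and Cgn falls to 2.38 to 4.75 FPKM in Naive-Mac tumors.

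The promoter sequences of the genes called or without overlap in Resist vs. Naive are shown because Cldn4 and Cldn3, 2 neighbors, were lower together while Tjp3 was higher. RefSeq promoter windows of GRCm38.p6, from 250 bases before to 50 after a start site, were at hand for 16 of the 23 tested members, 23 windows in all. Capitals mark the E-box CAGGTG, the letters that Snail and Zeb repressors bind, and the AP-1 element TGANTCA, each searched on both strands.
Cldn4, GRCm38.p6 chr5:134946885-134947184, minus strand: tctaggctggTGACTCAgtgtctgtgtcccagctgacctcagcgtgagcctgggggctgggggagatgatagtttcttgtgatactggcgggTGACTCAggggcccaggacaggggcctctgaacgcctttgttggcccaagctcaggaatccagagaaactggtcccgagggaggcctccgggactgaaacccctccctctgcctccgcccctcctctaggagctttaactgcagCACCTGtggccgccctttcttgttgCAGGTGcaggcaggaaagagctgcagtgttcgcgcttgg
Cldn3, GRCm38.p6 chr5:134985964-134986263, plus strand: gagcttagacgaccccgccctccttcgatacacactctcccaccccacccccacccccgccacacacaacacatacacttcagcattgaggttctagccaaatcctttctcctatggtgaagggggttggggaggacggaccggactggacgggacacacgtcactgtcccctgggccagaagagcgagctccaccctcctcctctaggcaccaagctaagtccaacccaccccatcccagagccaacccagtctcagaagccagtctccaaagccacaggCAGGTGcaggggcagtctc
Tjp3 (window 1), GRCm38.p6 chr10:81291532-81291831, minus strand: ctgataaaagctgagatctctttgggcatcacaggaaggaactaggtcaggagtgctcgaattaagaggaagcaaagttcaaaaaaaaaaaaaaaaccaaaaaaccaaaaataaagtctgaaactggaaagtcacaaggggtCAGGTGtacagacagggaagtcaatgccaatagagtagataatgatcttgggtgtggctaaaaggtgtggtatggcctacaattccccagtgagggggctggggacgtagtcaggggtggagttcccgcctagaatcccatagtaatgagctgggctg
Tjp3 (window 2), GRCm38.p6 chr10:81291218-81291517, minus strand: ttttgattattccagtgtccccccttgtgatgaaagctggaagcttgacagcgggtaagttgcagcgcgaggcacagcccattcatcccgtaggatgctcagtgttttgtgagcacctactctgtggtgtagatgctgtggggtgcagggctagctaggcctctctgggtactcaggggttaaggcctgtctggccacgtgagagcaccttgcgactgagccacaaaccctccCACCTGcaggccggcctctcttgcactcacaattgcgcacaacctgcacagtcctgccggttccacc
The Cldn4 window held both motifs, AP-1 in its distal part and E-boxes close to the start, while those of Cldn3 and Tjp3 held an E-box without AP-1. The E-box was in 6 of the 23 member windows, those of Cldn3, Cldn4, F11r, Pkp4 and Tjp3, and in 20.2% of all 32851 mouse windows. TGANTCA was in the windows of Cldn4 and F11r and in 7.81% of all windows. The Grainyhead-like motif AACCNGGTT was in 0 member windows and 0.271% of all windows. Genes that rose, fell or kept their level held the E-box, and a match of letters is a description of the window and not of binding.

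In resistant tumors Tjp1, Cgn, Ctnnd1 and Pkp4 were among the genes higher with macrophages present than after clodronate, the claudins Cldn9 and Cldn10 were lower, and Tjp3 was not called. In Resist vs. Resist-Mac 7 of 23 members were called, or 30.4%, where 21.7% of all 10041 genes tested were called. Of these, 5 were higher in Resist tumors (9.71% of all genes) and 2 were lower (12.0% of all genes). At any fold 9 of 23 passed the adjusted p, where 43.7% of all genes did. The median log2 change was 0.0012 over the members and -0.021 over all genes. Each of these differences lies between batches. With transcript length and GC content fitted and removed, 0 of the 23 members were called by limma, and 898 of 10026 genes tested. Of these members 6 passed the adjusted p at any fold and 8 had an unadjusted p under 0.05. The shares of all genes at these thresholds were not counted, so these counts cannot be set against all genes. With the noise-distribution probability, computed for members only, 4 members were called.

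Tjp1 (Entrez 21872) had 20.3, 23.9, 21.3, 23.9 and 19.4 FPKM in Resist and 10.5, 7.28, 10.4, 12.1 and 10.3 FPKM in Resist-Mac libraries, without overlap. Its log2 change was 1.05 (SE 0.12, adjusted p of 6.77e-05 in limma) as deposited and 0.57 (adjusted p of 0.00154) after the correction. Cgn had 15.7, 8.62, 15.5, 22.9 and 16.9 FPKM in Resist-Mac libraries, and of these only Resist-Mac 4 lay above the lowest Resist library.

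Cgn was 1.76-fold higher in Resist tumors (log2 0.82, SE 0.22, adjusted p of 0.00931 in limma), Ctnnd1 1.63-fold (0.70, SE 0.17) and Pkp4 1.53-fold (0.62, SE 0.098). After the correction these log2 changes were 0.48, 0.27 and 0.34. Of these, Pkp4 was without overlap, at 13.2 to 17.2 FPKM in Resist and 8.59 to 9.99 in Resist-Mac libraries. Ctnna1 was under the fold threshold at 0.54 (SE 0.13, adjusted p of 0.00552 in limma).

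The claudins called were Cldn9, 1.58-fold lower in Resist tumors (log2 -0.66, SE 0.16, adjusted p of 0.00564 in limma), and Cldn10, 1.54-fold lower (-0.62, SE 0.12, adjusted p of 0.00172). Cldn10 had 142 to 223 FPKM in Resist and 226 to 298 FPKM in Resist-Mac libraries, which did not overlap, as was so for 3 of 23 members (29.7% of all genes). After the correction the changes were -0.28 for Cldn9 and -0.39 for Cldn10. Summed FPKM over all named genes was 479783 to 510522 in Resist and 617066 to 761298 in Resist-Mac libraries. Claudins held 0.105% of it in Resist and 0.106% in Resist-Mac tumors. Cldn3 had -0.41 (SE 0.15, adjusted p of 0.0400) as deposited and 0.056 after the correction. Tjp3 and Cldn4, the members called between Resist and Naive, had log2 changes of -0.022 (SE 0.22) and -0.34 (SE 0.26) and were not called, and both comparisons share the Resist libraries.

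In naive tumors several genes of the cytoplasmic plaque were lower in Naive-Mac than in Naive tumors, among them Tjp1 by 6.83-fold, Cgn by 5.57-fold, Ctnna1 by 3.98-fold and Pkp4 by 3.70-fold on the FPKM + 1 scale, whereas Tjp3 and Ctnnb1 were not called. Cldn3 and Cldn10 were higher in Naive-Mac tumors as deposited, by 1.93-fold and 1.85-fold. Summed FPKM over all named genes was also higher there, at 880145 to 1.04e+06 against 508374 to 529378 in Naive libraries. As a share of summed FPKM, claudins held 0.136% in Naive and 0.128% in Naive-Mac tumors. After median-ratio scaling both genes were still called. In all, 11 of 23 members were called, or 47.8%, where 59.7% of all 9826 genes tested were called, a share below that of all genes. Of these, 9 were higher in Naive tumors (37.5% of all genes) and 2 were lower (22.1% of all genes).

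Tjp1 had 22.2, 24.1, 21.5, 21.6 and 19.7 FPKM in Naive and 1.14, 2.64, 3.14, 2.65 and 2.52 FPKM in Naive-Mac libraries, and Cgn had 2.57, 4.75, 2.38, 4.04 and 3.54 FPKM in Naive-Mac libraries. For both genes every Naive-Mac library was far below every Naive library. The log2 changes were 2.77 for Tjp1 (SE 0.16, adjusted p of 4.36e-09 in limma) and 2.48 for Cgn (SE 0.14, adjusted p of 4.52e-09), and 1.64 and 1.55 after the length and GC correction.

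The plaque genes of the desmosome were called in 4 of 4 cases, namely Pkp4 (log2 1.89, SE 0.11), Jup (1.49, SE 0.15), Pkp2 (0.79, SE 0.11) and Pkp3 (0.69, SE 0.093), where 37.5% of all genes were called higher in Naive tumors. Jup had 37.3, 47.5, 49.8, 40.65 and 39.5 FPKM in Naive and 10.7, 21.3, 12.6, 15.5 and 14.8 FPKM in Naive-Mac libraries, without overlap. Among catenins Ctnna1 (1.99, SE 0.12) and Ctnnd1 (1.58, SE 0.20) were called, and Ctnnb1 passed the adjusted p under the fold threshold (0.55, SE 0.12, adjusted p of 0.00111 in limma). Ctnna1 had 114 to 124 FPKM in Naive and 23.2 to 36.6 FPKM in Naive-Mac libraries.

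On the side of the membrane proteins, Cldn3 had 721, 623, 678, 775 and 715 FPKM in Naive-Mac libraries, all above its 5 Naive libraries, and a log2 change of -0.95 (SE 0.085, adjusted p of 2.45e-07 in limma). Cldn10 had -0.89 (SE 0.098, adjusted p of 1.98e-06). F11r (-0.55, SE 0.088) and Cldnd1 (-0.53, SE 0.12) passed the adjusted p under the fold threshold, and Cldn4 (0.14, SE 0.25) and Tjp3 (-0.030, SE 0.13) did not pass it. The groups did not overlap for 14 of 23 members, where 66.0% of all genes did not overlap, and 16 of 23 passed the adjusted p at any fold, where 78.1% of all genes did.

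The directions of the smaller differences rest on how libraries are scaled. The median log2 change of all genes was 0.23 as deposited and -0.053 after median-ratio scaling, so a gene with no difference relative to the median gene would be near 0.23 on the deposited scale. Cldn4 and Tjp3 were below that median, and the sign of Cldn4 turned with the scaling (-0.17). Of all genes called, 3686 were higher and 2176 lower in Naive tumors as deposited, and 2858 and 3070 after median-ratio scaling. Of the members, 9 were higher and 2 lower as deposited, and 7 and 7 after scaling. Tjp1, Cgn, Ctnna1, Ctnnd1, Jup and Pkp4 were among the 7 higher members after scaling, and all 7 were also called higher as deposited.

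Transcript length went with the direction of the depletion differences. Across genes, Spearman's rho between the log2 change and the length of the longest GENCODE transcript was 0.643 over all genes and 0.803 over the 23 members in Resist vs. Resist-Mac, and 0.709 and 0.780 in Naive vs. Naive-Mac. In Resist vs. Naive it was 0.155 over all genes and 0.581 over the members. Genes are not independent replicates, and these values are descriptions. In Naive vs. Naive-Mac the 12 members over 3 kb had a median log2 change of 1.53 and the 11 under 3 kb a median of -0.36. Tight junction scaffolds have long transcripts and claudins and connexins short ones. Medians were 4920 bases for the tight junction scaffold class, 2128 for claudins and 1721 for connexins. For these classes, class and length cannot be told apart by the deposited values alone. The desmosomal plaque genes tested had a median of 3068 bases, where all genes had 3299 in Naive vs. Naive-Mac.

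**Figure D4:**
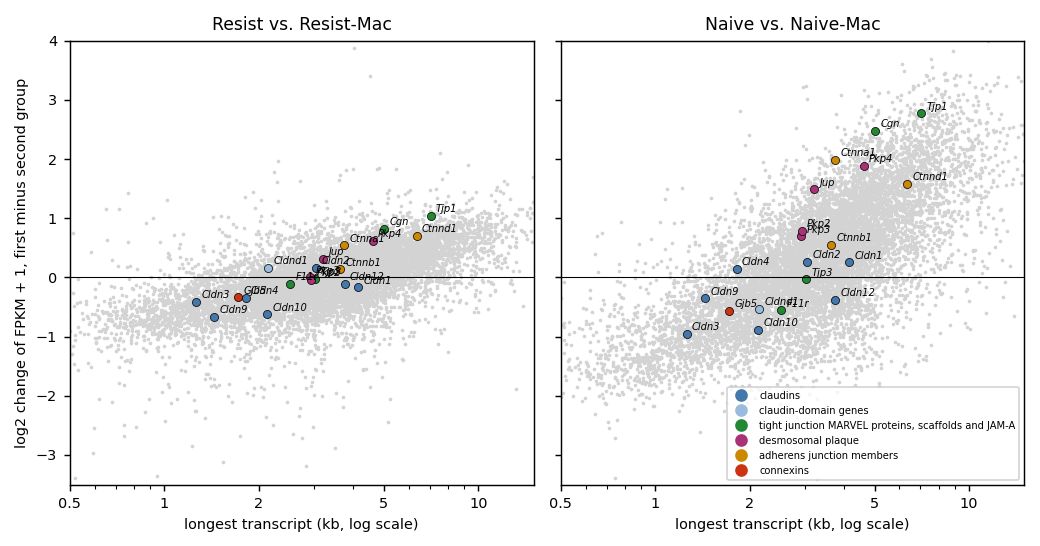
Log2 change of FPKM + 1, Resist minus Resist-Mac on the left and Naive minus Naive-Mac on the right, against the longest transcript in kb on a log axis, for all genes (grey) and 20 of the 23 junction genes (colored by class). In both panels the grey cloud rises with length (rho 0.643 and 0.709), and Tjp1 and Cgn lie at the long, high end while Cldn3 lies at the short, low end.

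After length and GC were fitted and removed in each library, 4163 of 9655 genes tested were called in Naive vs. Naive-Mac. Of these, 3147 were higher and 1016 lower in Naive tumors. The median log2 change of all genes was 0.30 after this correction and 0.23 before it, so the corrected values are also shifted upward. Among the 23 members 9 were called, all of them higher in Naive tumors. Ctnna1 (1.77), Tjp1 (1.64), Cgn (1.55), Jup (1.25), Pkp4 (1.18) and Pkp2 (0.97) were among those that stayed called, with the corrected log2 change in parentheses. Ctnnd1 (0.53) and Pkp3 (0.57) passed the adjusted p under the fold threshold. Cldn3 (-0.13, adjusted p of 0.293 in limma) was no longer called, nor was Cldn10 (-0.27), and Cldn4 (0.73) was called higher in Naive tumors. Quantile normalization likewise ended the Cldn3 call, at 0.029.

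**Figure D5:**
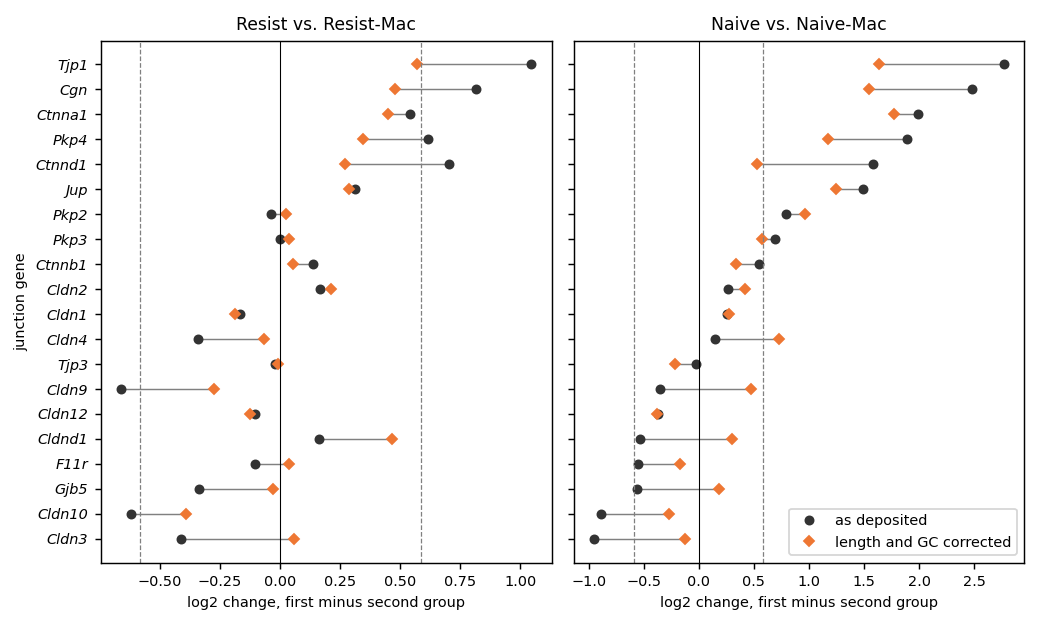
Log2 change of 20 of the 23 tested junction genes as deposited (dark circles) and after the length and GC correction (orange diamonds), for Resist minus Resist-Mac on the left and Naive minus Naive-Mac on the right, with dashed lines at the 1.5-fold threshold. On the left every diamond lies inside the lines, and on the right the diamonds of Ctnna1, Tjp1, Cgn, Jup, Pkp4 and Pkp2 stay beyond the upper line, Cldn4 moves past it from 0.14 to 0.73, and Cldn3 moves from -0.95 to -0.13.

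Whether depletion went with a different change in resistant than in naive tumors was tested by the interaction, (Resist minus Resist-Mac) minus (Naive minus Naive-Mac), for 9869 genes. At an adjusted p under 0.05, 13 of 23 members differed, or 56.5%, where 51.9% of all genes did. The difference was below 0 for 10 members (38.3% of all genes) and above 0 for 3 (13.6% of all genes). Among those below 0 were Tjp1 at -1.73 (SE 0.21) and Cgn at -1.66 (SE 0.27), which had larger changes in naive tumors. Cldn3 (0.54, SE 0.18), F11r (0.45, SE 0.12) and Cldnd1 (0.70, SE 0.18) were above 0 and none of these passed after the length and GC correction, nor did Ctnnd1, which went from -0.88 to -0.30 (adjusted p of 0.291 in limma). With that correction 11 of 23 members differed, all below 0, where 4539 of 9854 genes did, 3808 below and 731 above 0. The depleted groups were in different batches, so this difference too cannot be told apart from batch.

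Markers of blood cells were higher in the depleted groups. The median summed FPKM of the neutrophil list was 456 in Naive, 3863 in Naive-Mac, 223 in Resist and 2465 in Resist-Mac tumors. That of the 8 erythroid genes, 7 of which had a row in the Naive and Naive-Mac tables and 6 in the Resist-Mac table, was 106, 358, 165 and 201 in the same order. It ranged from 53.9 to 107 in Naive, 106 to 199.8 in Resist, 131 to 310.1 in Resist-Mac and 214 to 954 in Naive-Mac libraries. Of the 10 neutrophil genes 8 averaged over 1 FPKM in Naive and Resist tumors, 10 in Resist-Mac and 9 in Naive-Mac tumors. In bulk libraries fewer tumor cells and less RNA per tumor cell cannot be told apart, and the part of these cells in the junction gene values was not tested. Among epithelial genes of the same libraries, Krt8 had lower and Cldn3 higher mean FPKM in Naive-Mac than in Naive tumors.

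A wider list of 52 other junction genes, such as polarity proteins, nectins and plakins, was tested in the same fits. In Resist vs. Naive 0 of its 24 tested genes were called by limma (6.39% of all genes), with 5 at an adjusted p under 0.05 (19.1%). An unadjusted p under 0.05 was found for 11, and the share of all genes at that level was not counted. In Resist vs. Resist-Mac 9 of 25 were higher (9.71% of all genes) and 1 (Ybx3) was lower (12.0%) in Resist tumors. In Naive vs. Naive-Mac 16 of 23 were higher in Naive tumors (37.5% of all genes) and 0 lower (22.1%), led by Ppl (periplakin) at 3.49, Amotl1 at 3.36 and Afdn (afadin) at 2.95 on the log2 scale. The median transcript length of its tested genes was 4698 bases in Naive vs. Naive-Mac, against 3299 over all genes.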

How the data were processed

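Tumor cell RNA of 20 libraries was sequenced on a BGISEQ platform. The authors deposited 3 tables by Entrez identifier: log2(FPKM + 1) for Naive with Resist, which was turned back to FPKM, and FPKM on a linear scale for each depleted group. The submitters' processing notes name Bowtie2 and the mm9 build, and the quantifier and annotation are not given in the sources used here. Depth is unknown without counts. Identifiers were named with RefSeq (GRCm38.p6, names and neighbors only).

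The test was limma 3.58.1, run in R 4.3.3 (trend, pseudocount 1) on every gene whose mean reached 1 FPKM in the groups at hand, without a block. The scripts were tested on simulated data. NOISeq, the study's tool, was not run, and its noise distribution was rebuilt for the members. Length and GC of the longest GENCODE transcript were removed per library with splines of 4 degrees of freedom. Labels do not say that libraries came from separate cultures of the line, so p-values measure the spread between these pooled libraries.

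Members, gene lists and tests were chosen with earlier results of these data known. Genes named in the text were those called in Resist vs. Naive, those with a group mean of at least 20 FPKM, the 5 highest and 5 lowest called in each depletion comparison, a list by role, genes missing from some tables or at 0 everywhere, and neighbors within 100 kb. Alternatives were another pseudocount, filter, scaling, fold threshold and variance model, all groups together, a replicate block and single omissions. The joint omission of Naive 3 and Resist 1 was chosen after seeing the data.
Some members are counted among those tested, and their own values are not reported here.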

Additional observations from a re-analysis of the deposited data

Results flagged for a closer look

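Cldn4 was far from the other libraries of its group in 2 libraries. In Naive 3 it was at 199.27 FPKM, where the other 4 Naive libraries held 74.36 to 88.1, a gap of 0.890 of the whole range. In Resist 1 it was at 101.94 FPKM, where the other 4 held 36.18 to 51.25, a gap of 0.771. The limit was 0.71 for 5 libraries. Of 92 groups of libraries examined (23 genes in 4 groups), chance would give about 4.6 such gaps, and 2 were found, so these are not more than chance gives.

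For 13 junction genes the change with depletion was unequal in resistant and naive tumors by the test of the difference itself (limma interaction, adjusted p under 0.05). On the log2 scale, resistant minus naive, it was below 0 for 10 of them, among these Tjp1 (-1.726), Cgn (-1.661), Ctnna1 (-1.451), Pkp4 (-1.273), Jup (-1.174), Ctnnd1 (-0.8779), Pkp2 (-0.8262), Pkp3 (-0.6929) and Ctnnb1 (-0.4101). It was above 0 for 3, Cldnd1 (0.6971), Cldn3 (0.5372) and F11r (0.4512). After median-ratio scaling 13 genes passed as well, 8 below and 5 above 0, with Ctnnb1 and Pkp3 no longer among them. The median over all genes was -0.28 as deposited and 0.023 after that scaling. Once length and GC content were fitted, Ctnnd1 (-0.30, adjusted p of 0.291 in limma), Cldn3 (0.19), F11r (0.22) and Cldnd1 (0.19) no longer passed. The batches of the depleted groups differ, and their part cannot be told apart from that of depletion.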

How the results depend on the processing

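With a mean of at least 5 FPKM, which leaves Tjp3 untested, 1 of the 2 members called in Resist vs. Naive, Cldn4, was called. The noise-distribution probability also called only Cldn4. Only Tjp3 was called with no filter, with quantile normalization and with limma without the trend, and 0 members with a fold change over 2. Single omissions left 1 to 2 called. In Resist vs. Resist-Mac the 7 calls became 0 with the length and GC correction, 1 with a fold change over 2 and 4 with the noise probability, and 5 to 8 with single omissions. In Naive vs. Naive-Mac the 11 calls became 7 with a fold change over 2 and 11 to 13 with single omissions. The 13 interaction calls were 13 to 14 with single omissions. Causes were not tested beyond the filter. Among all genes, quantile normalization moved the split of higher and lower calls from 529 and 113 to 380 and 165 in Resist vs. Naive, from 975 and 1203 to 979 and 808 in Resist vs. Resist-Mac, and from 3686 and 2176 to 2625 and 2851 in Naive vs. Naive-Mac. For members it gave 9 higher and 3 lower in the last of these. The interaction split, 1338 above and 3783 below 0, became 2709 and 2735 with median-ratio scaling.

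With the replicate number as a block, 1 member was called in Resist vs. Naive, where Cldn4 had an adjusted p of 0.0721 in limma, and 7, 11 and 13 in the other 3 tests. Libraries of like number deviated together (correlation over 0.1) in 0, 2 and 1 of 5 pairs in the 3 comparisons, so the numbers give no pairing.

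Some signs turned. In Resist vs. Naive these were Ctnna1 (0.042, quantile), Ctnnb1 (-0.012, median-ratio scaling), Pkp2 (-0.029, median-ratio, and -0.0080, quantile) and Tjp1 (0.012 without Naive 3 and Resist 1). In Resist vs. Resist-Mac they were, with quantile normalization and then the length and GC correction, Cldn3 (0.10 and 0.056), F11r (0.092 and 0.035) and Pkp2 (0.014 and 0.022), and further Pkp3 (-0.0095, log2 ratio of means). In Naive vs. Naive-Mac they were Cldn3 (0.029, quantile), Cldn4 (-0.17, median-ratio), and with length and GC Cldn9 (0.48), Cldnd1 (0.31) and Gjb5 (0.18). Single omissions turned the sign of further log2 changes, given as lowest and highest value. In Resist vs. Naive they were Ctnna1 (-0.051 to 0.059), F11r (-0.088 to 0.0013), Gjb5 (-0.14 to 0.091), Pkp2 (-0.013 to 0.057) and Tjp1 (-0.041 to 0.032). In Resist vs. Resist-Mac they were Pkp2 (-0.12 to 0.086), Pkp3 (-0.14 to 0.11) and Tjp3 (-0.13 to 0.14). In Naive vs. Naive-Mac they were Cldn4 (-0.11 to 0.24) and Tjp3 (-0.10 to 0.038). The causes were not tested.

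Limits are the unknown depth, the depletion groups each in a batch of their own, pooled mice, a line of common origin and long transcripts that moved together in both depletion comparisons.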
